A study of Homo sapiens with 32 samples.

Results

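NXF1 encodes the principal export receptor of messenger RNA, and its own transcript was examined here for CLIP tags of the receptor and of its adaptors Alyref and Chtop. The gene (Ensembl ENSG00000162231) lies on the minus strand of chromosome 11, between bases 62559595 and 62573774 of hg19. It was chosen by name, as 1 of 63793 annotated genes and 1 of 19515 protein-coding genes, and every tag on its strand within these bounds was taken. No other gene of the annotation overlapped it on that strand.

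Tags came from iCLIP, in which ultraviolet light crosslinks a protein to RNA, an antibody recovers the protein, and reverse transcription stops beside the crosslinked base. HEK293T is a human embryonic kidney line and is the line named for every library, while the methods call the tagged lines FlpIn-293. Stable lines expressed Alyref-FLAG, Chtop-FLAG, Nxf1-FLAG or, as the Control, an empty FLAG construct, and all were precipitated with anti-FLAG. Tetracycline induced expression for 48 h. The dose was 5 ng/mL in the Nxf1 line, 10 ng/mL in those of the adaptors, and is not given for the Control. Each group had 3 libraries, and nothing states that they came from separate cultures, so p-values measure the spread between these libraries only. Each line is 1 stable transgenic line. The Nxf1 line carries an NXF1 transgene besides the endogenous gene, and its form, species and introns are not stated. Its mRNA could give tags in coding exons, which cannot be told apart from tags of the endogenous transcript.

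Nxf1 works as a heterodimer with Nxt1. It is handed mRNA by adaptors of the TREX complex, such as Alyref and Chtop, and carries it through the nuclear pore. Transcripts that keep an intron are normally held in the nucleus. A structured RNA called a constitutive transport element binds Nxf1 directly and lifts this block. Such an element is known in intron 10 of NXF1 itself, where it allows export of an NXF1 mRNA that retains the intron and codes for a shorter protein.

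The annotation holds the canonical transcript, NXF1-201, with 21 exons over 2290 nt, of which 1857 nt are coding, and 20 introns over 11021 nt. Intron 10 runs from 62566048 to 62567848 and is 1801 nt long, 16.3% of the intron length. It is retained whole in NXF1-211, a protein-coding isoform of 4128 nt with a coding length of 1068 nt, so that in this isoform nearly all of the intron is 3′ untranslated. Introns 2 and 20 are also retained in annotated isoforms. Across the genome 12322 of 182531 canonical introns of protein-coding genes are retained in another isoform.

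The densest short sites of each factor show where its tags lay closest together, and hold a minority of its tags in the intron or the exons. They are shown 5′ to 3′ as RNA of the minus strand of hg19, 30 nt each, with capitals at the bases tagged by the named factor. Each is the 30 nt with most tags of that factor, within intron 10 or within the exons, so these were chosen on the tags and are a description.
Nxf1 in intron 10, chr11:62567049-62567078: CacccuGuuuggccccggugGauggcugGU
Alyref in intron 10, chr11:62567608-62567637: UGuuUgcugggucuguggccuUucUcUuuc
Nxf1 in the coding sequence of exon 19, chr11:62561772-62561801: CuCuCcagagcagcaggaaaugUUgcaagc
Alyref in the coding sequence of exon 2, chr11:62571307-62571336: GgucuuccCGcCuugaggaagaugaugGaG
Chtop in the 3′UTR of exon 21, chr11:62559764-62559793: UcuggaagacuUcagaagAUuGagccucac

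Libraries held between 7017 and 631704 tags, and between 5824 and 547804 of these fell in exactly 1 gene (counted tags). Replicate 1 was the shallowest library of every group. The Nxf1 and Control replicates 1 held 6641 and 5824 counted tags, so that a gene with no tag in them could still lie at up to 452 and 515 CPM (tags scaled to 1000000 counted tags). This limit is the level of 3 tags. It and the intervals below cover counting error only. Tags are deduplicated reads, each tag 1 molecule by its random barcode.

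The transcript of NXF1 was tagged by all 3 factors, and Nxf1 gave the highest level. Alyref gave 8, 95 and 66 NXF1 tags in replicates 1, 2 and 3, Chtop gave 2, 51 and 23, and Nxf1 gave 1, 39 and 32. The Control gave 2, 2 and 0. Nearly every tag stood alone: the 321 tags made 318 pairs of library and base, and no base of a library had more than 2 tags.

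Scaled to counted tags with TMM factors, which correct for composition, the Alyref libraries lay at 145, 174.5 and 135 CPM. The Chtop libraries lay at 68.9, 117 and 72.4. The Nxf1 libraries lay at 104, 464 and 312.5 (the first from a single tag), and the Control libraries at 224.5, 57.3 and 0, from 2, 2 and 0 tags. On this scale the deeper Nxf1 replicates 2 and 3 lay above every other library, and Nxf1 replicate 1 and the Control overlapped with the adaptors. Without TMM factors, Control replicate 1 lay at 343 CPM, above Nxf1 replicate 3 at 269, and Nxf1 replicate 1 at 151 lay above Alyref replicate 1 at 132 and Chtop replicate 1 at 60.6.

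**Figure D1:**
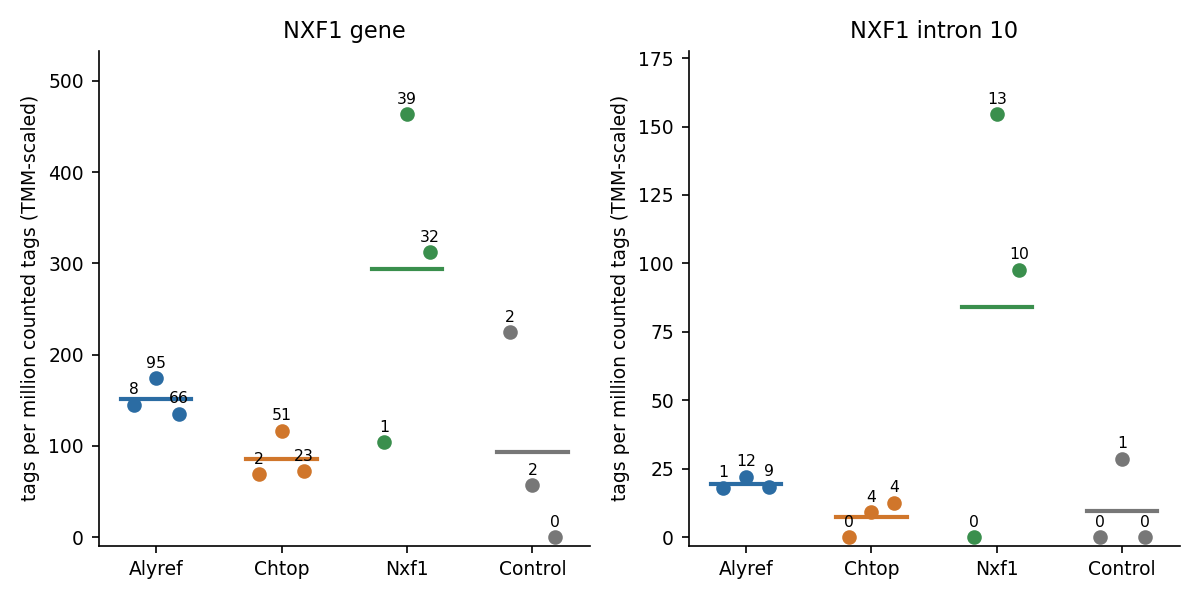
CPM, as tags scaled to 1000000 counted tags with TMM factors, for the NXF1 gene (left) and its intron 10 (right), by library, with the tag number above each point and the group mean as a line. With TMM factors, Nxf1 replicates 2 and 3 stand above all other libraries in both panels, and replicate 1 of Nxf1 and of the Control rest on 0 to 2 tags.

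The gene was compared between groups with edgeR's quasi-likelihood test over 3369 genes, and p-values were adjusted over all of them by Benjamini-Hochberg. NXF1 had 3.80-fold more tags with Nxf1 than with Chtop (log2 fold change of Chtop over Nxf1 -1.93 ± 0.36 SE, adjusted p = 0.000358). Here 11.1% of genes were called in this direction and 14.7% in the other. NXF1 also had 2.34-fold more tags with Nxf1 than with Alyref (log2 fold change of Alyref over Nxf1 -1.23 ± 0.34, adjusted p = 0.0286). In this comparison 1.87% of genes were called in this direction and 2.85% in the other. Between replicates of the same number, which shared sequencing lanes, Nxf1 exceeded Alyref and Chtop in replicates 2 and 3. In replicate 1 the single Nxf1 tag gave a TMM-scaled level between the adaptors. The first difference was called under every alternative run. The other was not called in DESeq2 (adjusted p = 0.176) or with library totals in place of TMM factors (adjusted p = 0.106), and was lost when any of Nxf1 or Alyref replicates 2 and 3 was left out (adjusted p up to 0.294).

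Alyref gave 1.62-fold more NXF1 tags than Chtop, which did not pass the test (log2 fold change 0.70 ± 0.33, adjusted p = 0.136). Calls were 6.47% of genes upward and 10% downward in that comparison.

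Against the Control no difference was called, and its 4 NXF1 tags limit what could be seen. The log2 fold change over the Control was 2.52 ± 0.69 for Nxf1 (adjusted p = 0.301), 1.30 ± 0.74 for Alyref (adjusted p = 0.395) and 0.60 ± 0.80 for Chtop (adjusted p = 0.63). The value for Nxf1 had an unadjusted p of 0.000719 and the 6th smallest p among the genes. Of all genes, 0% were called higher and 0.0297% lower with Nxf1, 0.119% and 0.148% with Alyref, and 9.2% and 5.97% with Chtop. All 3 comparisons use the same Control libraries. By log2 fold change over the Control, NXF1 stood above 98.6% of genes with Nxf1, 88.6% with Alyref and 63% with Chtop. These values moved with single Control libraries. Without Control replicate 3 or replicate 1 the log2 fold change was 1.97 or 3.31 for Nxf1, 0.81 or 2.18 for Alyref and 0.11 or 1.54 for Chtop, and none was called.

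Within the gene, all 21 exons held tags and 11 of the 20 introns did. Alyref had 108 of its 169 NXF1 tags in the coding sequence, 7 in the 5′UTR, 20 in the 3′UTR, 22 in intron 10 and 11 in other introns. Chtop had 27 of 76 in the coding sequence, 2 in the 5′UTR, 24 in the 3′UTR, 8 in intron 10 and 9 in other introns. Nxf1 had 42 of 72 in the coding sequence, none in the 5′UTR, 1 in the 3′UTR, 23 in intron 10 and 6 in other introns. Chtop had the largest 3′UTR part and Nxf1 the largest intron 10 part. The Control's 4 tags fell 1 each in the 3′UTR, intron 10, another intron and outside the canonical transcript.

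**Figure D2:**
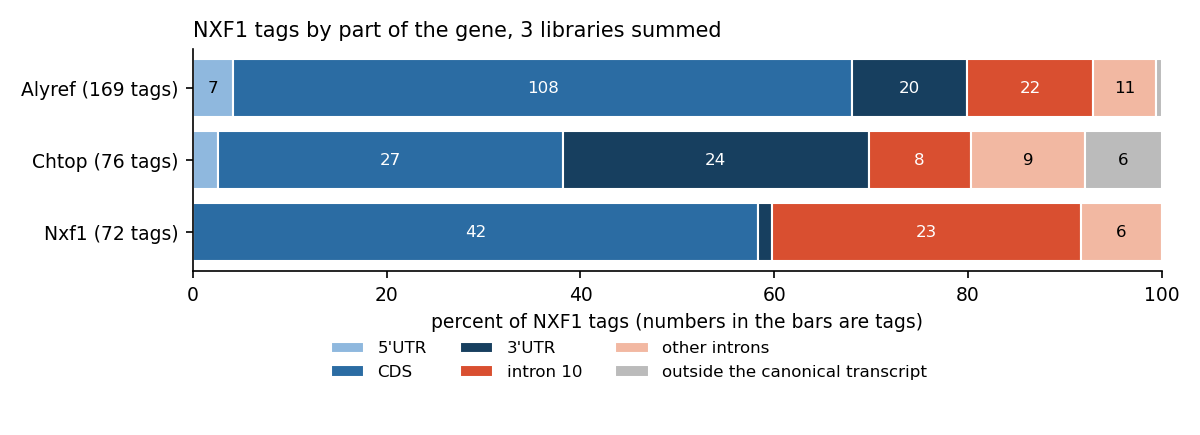
Percent of NXF1 tags by part of the gene for Alyref, Chtop and Nxf1, with the 3 libraries of a factor summed and tag numbers printed in the bars. Intron 10 takes 13.0%, 10.5% and 31.9% of the tags of Alyref, Chtop and Nxf1, and the 3′UTR 11.8%, 31.6% and 1.39%.

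Along the spliced transcript, the median exon tag lay at 46.8% of the length from the 5′ end for Alyref, at 55.4% for Nxf1 and at 79.3% for Chtop. By library the medians were 37.2%, 50.4% and 31.2% for Alyref replicates 1 to 3, 76.4% and 87.0% for Chtop replicates 2 and 3, and 57.9% and 53.3% for Nxf1 replicates 2 and 3. The deeper libraries of the factors did not overlap. Chtop replicate 1 and Nxf1 replicate 1 had no exon tag.

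Exon 21, the last exon, holds the stop codon and the whole 3′UTR of 349 nt. Alyref gave 0, 11 and 10 tags there, Chtop 0, 15 and 10, and Nxf1 0, 1 and 0. Per length this was 76.0 CPM per kb for Chtop, 49.3 for Alyref and 11.8 for Nxf1, beside 40.4 for the Control from 1 tag. Nxf1 had fewer tags than either adaptor in replicates 2 and 3, but these counts are not scaled for depth. Those Nxf1 libraries held 94449 and 119012 counted tags, against 356457 to 547804 in those of the adaptors. The mean TMM-scaled levels of the exon were 13.6 CPM for Alyref, 21.9 for Chtop and 3.96 for Nxf1. A count of 0 in Nxf1 replicate 3 allows up to 25.2 CPM, above the mean of either adaptor. The site printed above, near the middle of the 3′UTR, held 6 Chtop tags, 4 Alyref tags and 1 Nxf1 tag. Within it, 2 bases were tagged in 3 libraries each, the most of any NXF1 base.

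The use of a segment, its change relative to the tested segments of its gene, was tested with edgeR's diffSpliceDGE over 25304 segments. For NXF1 the tested segments were exons 2, 5, 19 and 21 and intron 10, not the whole gene. The intron 10 tags therefore enter the value of exon 21. Relative to the tested segments, exon 21 was higher with Chtop than with Nxf1 (log2 difference 4.34 ± 1.04, adjusted p = 0.00666). Of all segments, 2.47% were called in this comparison. Without Nxf1 replicate 3 the log2 difference was 3.42 and was not called (adjusted p = 0.309). Without Nxf1 replicate 2, which held the only Nxf1 tag of the exon, it was 7.18 (adjusted p = 0.0386). The log2 difference between Alyref and Nxf1 was 3.22 ± 1.14 and did not pass (adjusted p = 0.613), where 0.0593% of segments were called. As a level, exon 21 gave a log2 fold change of Chtop over Nxf1 of 2.44 ± 1.21, which did not pass (adjusted p = 0.167). The part of the NXF1 transgene in these exon values was not tested.

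Other exons reached 15 tags over all libraries in 3 cases, and were tested among 28405 exon and intron segments. Exon 5 had 7 Nxf1 tags (3 and 4 in replicates 2 and 3), 11 Alyref tags (5 and 6) and 1 Chtop tag. At 303 CPM per kb it was the densest exon for Nxf1. Its difference between Chtop and Nxf1 was called (log2 fold change -4.19 ± 1.14, adjusted p = 0.0122). Exon 5 reached the 15 tags only with its Nxf1 tags counted, the group in which it was then called higher. This call is therefore a description of those tags. Exon 19 had 9 Nxf1 tags (4 and 5), 11 Alyref tags (10 and 1) and 5 Chtop tags (3 and 2). Its difference between Chtop and Nxf1 was also called (log2 fold change -2.71 ± 0.89, adjusted p = 0.0412). The exon 5 call was lost in 3 of the 5 other settings that gave an adjusted p (up to 0.0946). Only 10 fits that left out a library still tested exon 5. It was lost without Chtop replicate 3 or Nxf1 replicate 3 (up to 0.174). The exon 19 call was lost in all 5 settings (up to 0.213), and in 9 of the 12 fits that left out a library (up to 0.319, without Nxf1 replicate 3). In this comparison 7.6% of segments were called.

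Exon 2, early in the coding sequence, had 15 Alyref tags (2, 4 and 9), 5 Chtop tags (4 and 1 in replicates 2 and 3) and 1 Nxf1 tag. Its differences did not pass the test (adjusted p = 0.358 for Alyref against Chtop and 0.625 for Alyref against Nxf1). Exon 6 had 11 tags, all of Alyref, and at 123 CPM per kb was its densest exon. It was below the 15 tags needed for a test.

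**Figure D3:**
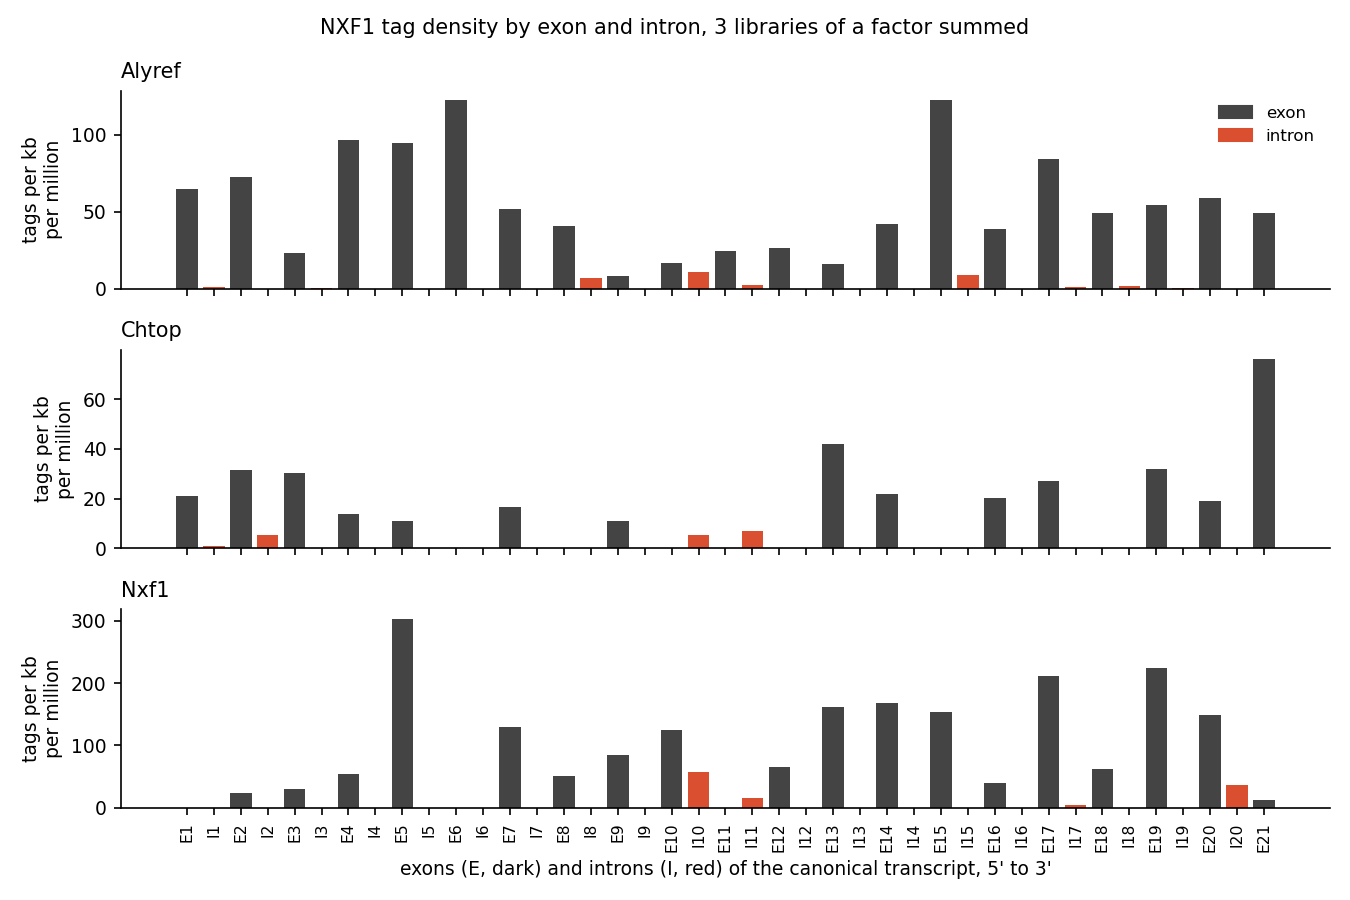
CPM per kb in each exon (dark) and intron (red) of the canonical NXF1 transcript, 5′ to 3′, for Alyref, Chtop and Nxf1 with libraries summed (the vertical scales differ). Chtop is highest in exon 21 at 76.0, Nxf1 is highest in exon 5 at 303, and intron 10 is the highest intron for Nxf1 at 58.0 and for Alyref at 11.03.

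Over all libraries together, intron 10 held most of the tags in NXF1 introns. It had 54 of the 81 intron tags, or 66.7%, against 16.3% of the intron length. Intron 11 had 14 tags (7 of Chtop, all in replicate 2, 3 of Alyref and 4 of Nxf1), and the other 9 introns with a tag had between 1 and 4 each. Introns 2 and 20, which are also annotated as retained, had 1 tag each. Chtop had 8 of its 17 intron tags in intron 10. Per length, Nxf1 gave 58.0 CPM per kb in intron 10, Alyref 11.03 and Chtop 5.20. With Chtop, intron 11 at 7.11 and intron 2 at 5.35, from 1 tag, were denser. In the other introns of the gene together the levels were 2.96, 1.08 and 1.14. Intron 10 was thus 19.6-fold denser than the other introns with Nxf1, 10.2-fold with Alyref and 4.55-fold with Chtop. It had 0.680 of the density of the exons with Nxf1, 0.207 with Alyref and 0.192 with Chtop.

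By library, Alyref gave 1, 12 and 9 tags in intron 10, Chtop 0, 4 and 4, Nxf1 0, 13 and 10, and the Control 0, 1 and 0. The TMM-scaled Alyref levels were 18.15, 22.0 and 18.4 CPM. Chtop lay at 0, 9.15 and 12.6, Nxf1 at 0, 154.5 and 97.7, and the Control at 0, 28.6 and 0. Nxf1 replicates 2 and 3 stood above all other libraries. The absence of tags from Nxf1 replicate 1 allowed up to 452 CPM, and that from Chtop replicate 1 up to 90.9.

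In the segment test, intron 10 had 10.6-fold more tags with Nxf1 than with Chtop (log2 fold change of Chtop over Nxf1 -3.41 ± 0.70, adjusted p = 0.00115). It had 5.55-fold more with Nxf1 than with Alyref (log2 fold change of Alyref over Nxf1 -2.47 ± 0.61, adjusted p = 0.0305). In the latter comparison 0.253% of segments were called. Ranked by p among all segments, intron 10 was 28th and 49th in these comparisons. By log2 fold change, 2.3% and 1.9% of the 12720 tested introns lay lower. Among the 437 tested introns that are retained in an isoform, these shares were 1.6% and 1.1%. The median log2 fold change of those retained introns was 0.15 for Chtop over Nxf1 and 0.53 for Alyref over Nxf1. Over all 12720 tested introns the medians were -0.98 and -0.34, in the same direction as intron 10.

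The difference from Chtop was not called with DESeq2 (adjusted p = 0.077) or with TMM factors computed on segments (adjusted p = 0.0849), and was called in every fit that left out a library. The difference from Alyref was not called with DESeq2 (adjusted p = 1.00), with library totals (adjusted p = 0.158), with TMM factors from segments (adjusted p = 0.332) or without a filter on low counts (adjusted p = 0.093), and was lost on leaving out any of Alyref replicates 1, 2 and 3, Nxf1 replicates 2 and 3 or Control replicate 1 (adjusted p 0.0536 to 0.472).

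The difference between Alyref and Chtop in intron 10 was not called (log2 fold change 0.94 ± 0.71, adjusted p = 0.397), where 8.73% of segments were called. Nxf1 over the Control gave a log2 fold change of 2.85 ± 1.24 (adjusted p = 0.781, 494th smallest p of the segments), with 0.0141% of segments called. Without Control replicate 2, which held the only Control tag, it was 7.40, and without Control replicate 3 it was 2.33, neither of them called (adjusted p = 0.845 and 0.85). Alyref over the Control gave 0.38 ± 1.53 (adjusted p = 0.895, 0.229% called) and Chtop -0.56 ± 1.70 (adjusted p = 0.804, 1.28% called). The Control had 1 intron 10 tag, and the directions for Alyref and Chtop rest on it.

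A higher level in the intron can come with a higher level over the whole gene, so the intron was also set against the rest of NXF1. With the intron 10 tags removed, the gene still had more tags with Nxf1 than with Chtop (log2 fold change of Chtop over Nxf1 -1.54 ± 0.40, adjusted p = 0.00545). Its difference from Alyref then missed the threshold (log2 fold change of Alyref over Nxf1 -0.88 ± 0.37, adjusted p = 0.159). With the exons alone these values were -1.72 ± 0.44 (adjusted p = 0.00531) and -0.80 ± 0.40 (adjusted p = 0.262). The introns other than 10, summed, gave -1.41 ± 1.43 and -1.64 ± 1.40 (adjusted p = 0.474 and 0.555).

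Relative to the tested segments of the gene, the use of intron 10 was lower with Chtop than with Nxf1. The log2 difference was -1.52 ± 0.67 (edgeR, adjusted p = 0.214). For Alyref against Nxf1 the log2 difference was -0.99 ± 0.57 (adjusted p = 0.712), and for Alyref against Chtop 0.52 ± 0.66 (adjusted p = 0.727, 1.73% of segments called). None of the 3 passed.

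As a share of a library's own NXF1 tags, intron 10 took 12.5%, 12.6% and 13.6% in the Alyref libraries. The exact 95% intervals were 0.316 to 52.7%, 6.70 to 21.03% and 6.43 to 24.3%. It took 7.84% (2.18 to 18.9%) and 17.4% (4.95 to 38.8%) in Chtop replicates 2 and 3, and 33.3% (19.1 to 50.2%) and 31.25% (16.1 to 50.0%) in Nxf1 replicates 2 and 3. Chtop replicate 1 had 0 of 2 tags there and Nxf1 replicate 1 had 0 of 1, which set no limit. The deeper Nxf1 libraries were above the 6 adaptor libraries. Over all 3 Nxf1 libraries the mean share was 21.5% ± 18.7 (SD, n = 3), against 10.7% ± 6.05 in the adaptor libraries (n = 6). The difference of 10.9 percentage points did not pass a two-sided exact permutation test (p = 0.167, adjusted over the 5 share tests p = 0.834). The smallest p this design allows is 0.0238. Without Nxf1 replicate 1 the difference was 21.6 percentage points (exact permutation p = 0.0714, the smallest that 2 against 6 libraries allow, so that it could not pass). Without Nxf1 replicate 2 it was 4.96 percentage points (exact permutation p = 0.5), the lowest value on leaving out a library. Alyref and Chtop each differed from the rest by -2.05 and -8.81 percentage points (exact permutation p = 0.786 and 0.357).

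The coding part of NXF1 tags was 87.5%, 64.2% and 60.6% in the Alyref libraries, 0 of 2 tags, 39.2% and 30.4% in the Chtop libraries, and 0 of 1 tag, 61.5% and 56.25% in the Nxf1 libraries. The mean for Nxf1 differed from that of the adaptors by -7.73 percentage points, and this sign turned without Nxf1 replicate 1 (exact permutation p = 0.69 and 0.786).

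Inside intron 10 the densest group of Nxf1 tags lay near the middle. The 30 nt from base 771 to 800 of the intron held 7 of its 23 tags, 3 in replicate 2 and 4 in replicate 3. The 60 nt made of these and 15 nt on each side held 9, or 39.1%, in 3.33% of the intron length. Of these 9 tags, 4 were in replicate 2 and 5 in replicate 3. The same 60 nt held none of the 22 Alyref tags, 1 of the 8 Chtop tags and not the single Control tag. This stretch was chosen on the Nxf1 tags, so its shares are a description and not a test. Bases 799 and 800 were each tagged in both deeper Nxf1 libraries and in no other. Among the 299 tagged NXF1 bases, 17 were tagged in more than 1 library, and these were the 2 that were tagged in 2 Nxf1 libraries.

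The densest group of Alyref tags in the intron lay elsewhere. Alyref and Nxf1 tags were not apart throughout, and base 1582 was tagged in replicate 2 of both. The 30 nt with most Alyref tags, from base 212 to 241, held 6 of 22, with 1 in replicate 2 and 5 in replicate 3. Chtop and Nxf1 had 1 tag each in it, and the single Control tag of the intron lay just past it, at base 243. Its sequence, printed above, is rich in uracil, and 5 of the 6 Alyref tags there were at a uracil. In the whole intron 63.6% of Alyref tags, 34.8% of Nxf1 tags and 1 of 8 Chtop tags were at a uracil, which makes up 25.8% of the bases. Nxf1 tags there were most often at a guanine, at 43.5% against 27.3% of the bases. In the exons uracil took 48.9% of Alyref tags, 50.9% of Chtop tags and 41.9% of Nxf1 tags, against 23.7% of the bases.

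**Figure D4:**
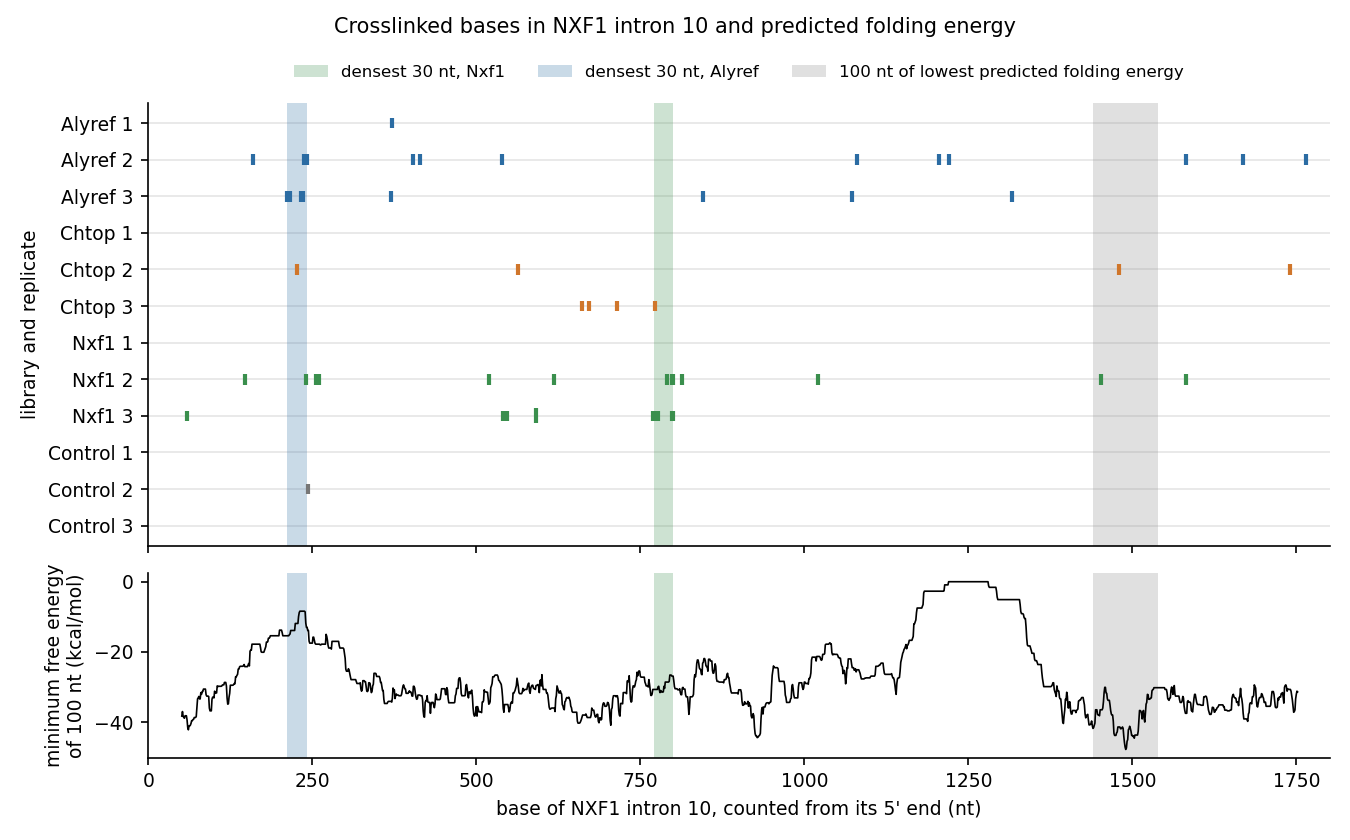
Crosslinked bases in NXF1 intron 10 for each of the 12 libraries (top), by distance in nt from the 5′ end of the intron, and the predicted minimum free energy of each 100 nt in kcal per mol (bottom). Nxf1 replicates 2 and 3 share the green site at bases 771 to 800, Alyref gathers at the blue site at bases 212 to 241, and the grey stretch of lowest energy holds 1 Nxf1 tag and 1 Chtop tag.

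A constitutive transport element is structured, so the intron was also searched for structure from its sequence alone with RNAfold. The 100 nt of lowest minimum free energy were bases 1440 to 1539 of the intron (chr11:62566310-62566409), at -47.8 kcal per mol against a median of -30.5 over 1702 windows. By the same search, intron 1 reached -67.0 and intron 4 reached -48.4, both lower. The other NXF1 introns of at least 100 nt did not go as low. The place in intron 10 depended on the length searched. With 80 nt the lowest stretch was bases 627 to 706, which held 2 of 8 Chtop tags and none of Nxf1 or Alyref, and with 120 nt it was bases 1438 to 1557. The stretch of 100 nt held 1 of 23 Nxf1 tags, 1 of 8 Chtop tags and 0 of 22 Alyref tags, and the mean share of intron 10 tags in it was 3.85% for Nxf1 and 5.00% for the adaptors (exact permutation p = 1.00 over 21 splits, smallest possible 0.0952). The 100 nt centred on the Nxf1 site, bases 736 to 835, had a predicted energy of -29.8 kcal per mol, and 54.3% of windows were lower. Of the 7 different bases tagged by Nxf1 in it, 4 were predicted as paired, beside 56 of all its 100 bases. The position of the transport element is not in the annotation, and neither stretch was identified with it. The paper that reported these data shows Nxf1 crosslinks within a structure of intron 10 that resembles the element. The position of that structure was not compared here.

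The density of intron 10 was ranked among all canonical introns, including those with no tag, and was not corrected for expression. NXF1 itself was among the more tagged genes. With Nxf1, 245 of 13692 tagged protein-coding genes had more tags. By Nxf1 tags per length, 135 of 182531 introns (0.074%) were denser, among them 69 of the 12322 retained introns (0.56%). With Alyref 1.07% of introns and with Chtop 2.59% were denser, and with the Control, from 1 tag, 2.635%. Among the retained introns 6.99% were denser with Alyref, 12.4% with Chtop and 5.6% with the Control. The Control rank rests on 1 tag in shallow libraries, so it cannot be set against the ranks of the factors.

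The introns whose 3 log2 fold changes over the Control were nearest to those of intron 10, among 12719 other introns, were PHF2 intron 1, NPTN intron 1, JADE3 intron 1, LAMA5 intron 6 and TFB1M intron 5. Their distances in these 3 values were between 0.50 and 0.59, and each held 44 to 52 tags. The genes nearest to NXF1, among 3209 protein-coding genes, were CORO1C, RPS16, GNAS, ATP5F1B and FDPS, at distances between 0.29 and 0.62. None of these genes or introns was called against the Control with any factor, and the 3 contrasts share the Control libraries.

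The other genes of the export pathway gave the setting for the NXF1 values. Of 44 other listed genes, 16 had enough tags to be tested. Between Chtop and Nxf1, 7 of these 16 were higher with Chtop and none lower, beside 14.7% and 11.1% of all genes. Between Alyref and Nxf1, 2 were higher with Alyref and none lower, beside 2.85% and 1.87%. NXF1 was called in the other direction and had the lowest log2 fold change of the 17 tested genes in both. SRSF3 (-0.60) and NUP155 (-0.20) were also negative for Chtop over Nxf1. For Alyref over Nxf1, CHTOP (-0.48), CPSF6 (-0.44), SRSF3 (-0.18) and NUP153 (-0.15) were negative too. None of these was called. The part of the NXF1 transgene of the Nxf1 line in the NXF1 values was not tested. The medians of the other 16 were 0.76 and 0.44, against 0.02 and 0.00 over all genes.

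**Figure D5:**
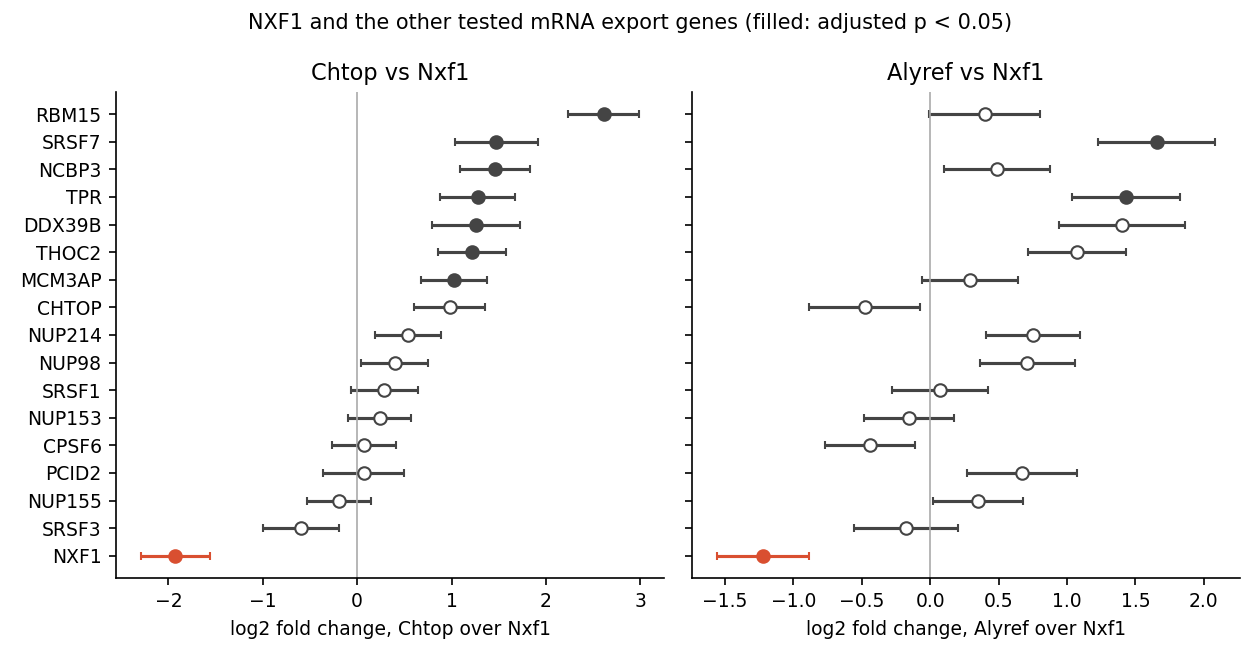
Log2 fold change with its standard error for NXF1 (red) and the 16 other tested mRNA export genes, Chtop over Nxf1 (left) and Alyref over Nxf1 (right). Filled points passed an adjusted p of 0.05, and NXF1 is the lowest point in both panels at -1.93 and -1.23.

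RBM15, which links N6-methyladenosine writing to export, was the most Chtop-leaning of them (log2 fold change of Chtop over Nxf1 2.61 ± 0.38, adjusted p = 1.37e-05). The TREX subunit THOC2 (1.22 ± 0.36, adjusted p = 0.0127) and the splicing factor and adaptor SRSF7 (1.48 ± 0.44, adjusted p = 0.0132) were also among the 7. So was NCBP3, a cap-binding protein (1.46 ± 0.37, adjusted p = 0.00504). Between Alyref and Nxf1 the called genes were SRSF7 (1.65 ± 0.43, adjusted p = 0.0203) and TPR, a nuclear basket protein of the pore (1.43 ± 0.40, adjusted p = 0.0295). DESeq2 gave no call for TPR in either comparison, nor between Chtop and Nxf1 for SRSF7, NCBP3, DDX39B or MCM3AP (adjusted p between 0.0611 and 0.1245). Without Nxf1 replicate 3, of the 7 genes called between Chtop and Nxf1 only RBM15 remained called (adjusted p of the other 6 between 0.0537 and 0.265). Without it neither SRSF7 nor TPR was called against Alyref (adjusted p = 0.275 and 0.312). The same held for these 2 without Nxf1 replicate 2 or without Alyref replicate 2 or 3, and for NCBP3 between Chtop and Nxf1 without Nxf1 replicate 2.

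Against the Control, 5 of the 16 rose with Chtop, where 9.2% of all genes did. None rose with Alyref or Nxf1 in edgeR, where 0.119% and 0% of all genes did. The 4 with the smallest p were RBM15 (log2 fold change 3.43 ± 0.54, adjusted p = 0.000175), CHTOP (2.82 ± 0.71, adjusted p = 0.00889), NCBP3 (2.27 ± 0.58, adjusted p = 0.00929) and MCM3AP, the TREX-2 scaffold (1.91 ± 0.47, adjusted p = 0.00754). The CHTOP call was lost without Control replicate 2, and those of NCBP3 and MCM3AP without Control replicate 3 (adjusted p 0.0761 to 0.0859). NXF1 ranked 1st of the 17 by log2 fold change of Nxf1 over the Control, 3rd with Alyref and 10th with Chtop. Between Alyref and Chtop, 3 of the 16 were lower with Alyref and none higher, beside 10% and 6.47% of all genes, and NXF1 ranked 1st.

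The other members of the receptor family gave almost no tags. NXT1, the partner of Nxf1, had 14 in all, with 8 of Alyref, 4 of Chtop and 2 of Nxf1. NXT2 and NXF3 had 2 each, and NXF2, NXF2B and NXF5 had none in any library. NXF2 and NXF2B are near-identical copies, and unique mapping drops reads that match both. Why these genes had few or no tags was not tested. None of these family members had enough tags for a comparison between groups.

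Of the genes of the tagged proteins, CHTOP had 6, 135 and 125 tags with Chtop, or 182, 291 and 351 CPM without TMM factors. It lay at 66.05, 113 and 136 CPM with Alyref, at 452, 212 and 75.6 with Nxf1 (3, 20 and 9 tags) and at 0, 27.8 and 89.1 in the Control. In replicates 2 and 3 it was highest with its own protein, and in replicate 1 the 3 Nxf1 tags gave the highest level. The difference between Alyref and Chtop was called (log2 fold change -1.46 ± 0.30, adjusted p = 0.00101), though not with DESeq2 (adjusted p = 0.0769) or without Alyref replicate 2 (adjusted p = 0.0568). That between Chtop and Nxf1 was not called (log2 fold change 0.98 ± 0.38, adjusted p = 0.0505). NXF1 was likewise highest with its own protein in replicates 2 and 3. ALYREF had 40 tags with Alyref, 17 with Chtop, 14 with Nxf1 and 0 in the Control, too few for a test, and lay at 47.5 and 28.1 CPM in Alyref replicates 2 and 3 against 106 and 33.6 in those of Nxf1. Each of these 3 lines carries a transgene of that gene, and its part in these values was not tested.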

How the data were processed

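Deposited files held, per library, each crosslinked base with a count of tags in a single column. The authors made these counts by removing phiX reads (Bowtie 1.1.2), taking random barcodes and deduplicating with UMI-tools 0.5.3, mapping with STAR 2.4.2a to hg19, keeping unique mappers and merging the 32 lane runs into 12 libraries. Unique mapping loses reads from repeats, so such bases can look empty. Merged tables of all replicates of a factor were not used here, and 0 columns of other samples were present.

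Tags were assigned to genes and canonical segments with GENCODE v44 lifted to GRCh37, leaving out readthrough genes and tags in several genes (3.47 to 5.12% of a library). Counts were tested with edgeR 4.0.16 (TMM, filterByExpr, quasi-likelihood), with DESeq2 1.42.0 as an alternative. filterByExpr left 816 segments and not intron 10, so segments were instead required to hold 15 tags over all libraries, a choice made after the data were seen, as were a minimum of 30 tags, the fits without intron 10 or on exons alone, and the shares in libraries of at least 10 NXF1 tags. Shares were compared by exact permutation (SciPy 1.17.1) and folds predicted with RNAfold 2.7.2. The fits were tested on simulated data. Same-numbered libraries were compared for pairing: their deviations correlated between -0.191 and 0.26, so replicate numbers were not used as a block.

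The gene, the export list and the comparisons were chosen with earlier results of these data known. Genes were named by rule: NXF1 with its exons and introns, the 5 genes and the 5 introns nearest in log2 fold change over the Control, up to 4 export genes per direction and contrast with the smallest adjusted p under 0.05, the receptor family, and the genes of the tagged proteins.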

Additional observations from a re-analysis of the deposited data

Results flagged for a closer look

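For NXF1 and its exons and introns, 7 differences between 2 tagged lines passed their own test. Tests covered the gene, exons 2, 5, 19 and 21 and intron 10, in every comparison of 2 tagged lines. The log2 fold change of NXF1 was -1.23 for Alyref over Nxf1 and -1.93 for Chtop over Nxf1. In intron 10 the same comparisons gave -2.47 and -3.41. For Chtop over Nxf1, exon 5 gave -4.19, exon 19 gave -2.71 and the use of exon 21 gave 4.34. Exon 5 reached the filter only with its Nxf1 tags counted. Between Chtop and Nxf1, 11.1% of all genes were called lower and 14.7% higher. Of all segments, 7.6% were called there by level and 2.47% by use. Between Alyref and Nxf1, 1.87% of genes were called lower and 2.85% higher, and 0.253% of segments were called by level. Tetracycline doses differed between the Nxf1 line and the others, so line, dose and protein cannot be told apart.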

How the results depend on the processing

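The difference of NXF1 between Chtop and Nxf1 was called under every alternative run. For Alyref over Nxf1 the log2 fold change of the gene missed the threshold with intron 10 left out (-0.88), exons only (-0.80), library totals (-0.93), no filter on low counts (-1.22) and DESeq2 (-1.27), and ranged from -1.38 to -0.88 on leaving out each library. For intron 10, Alyref over Nxf1 missed it with library totals (-2.16), no filter (-2.47), TMM factors from segments (-1.77) and DESeq2 (-2.48), and ranged from -2.64 to -2.05 on leaving out each library. Chtop over Nxf1 missed it with TMM factors from segments (-2.89) and DESeq2 (-3.46). The cause was not tested. Over the Control, the intron 10 value of Alyref turned to -0.091 with DESeq2 and ranged from -0.084 to 5.00 on leaving out each library. That of Chtop turned to 0.87 with TMM factors from segments and ranged from -1.02 to 4.05. On leaving out each library, the difference in intron 10 share for Alyref ranged from -5.04 to 1.63 percentage points, that in the lowest-energy stretch for Nxf1 from -5.00 to 3.85 and that in coding share for Nxf1 from -18.9 to 11.9. The last was 10.3 in libraries of at least 10 NXF1 tags.

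Replicate numbers did not pair the libraries. With the replicate block, the intron 10 difference of Alyref over Nxf1 was -2.44 (adjusted p = 0.278, edgeR) and was not called, nor were exon 5 (-4.21) and exon 19 (-2.84) for Chtop over Nxf1. Library totals in place of TMM factors moved the median of all genes by 0.30 for Alyref over Nxf1, 0.19 for Chtop over Nxf1, 0.16 for Alyref over the Control and -0.14 for Nxf1 over the Control (log2). Depth limits every Control comparison, with 4 NXF1 tags in the Control, and replicate 1 of Nxf1, with 1 tag.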
